A study of Mus musculus with 12 samples.

Results

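The genes that supply and run de novo fatty acid synthesis were examined in cytotoxic T lymphocytes (CTL) after deletion of Pdpk1 and after inhibition of Akt. The 9 genes were chosen by name for their place in the pathway, with no threshold on a measured value. Earlier results of these data were known at that time. They are Slc25a1, Acly, Acss2, Acaca, Fasn, Me1, Acsl3, Acsl4 and Acsl5, and all 9 were among the 18193 genes measured. The arrays hold 23 probe sets annotated to them, of which 22 name 1 of these genes alone, and the probe set brightest on average across the 12 arrays stood for its gene.

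All cells were C57BL/6 splenic T cells activated through CD3 (antibody 2C11 at 0.5 μg/ml) for 48 hr and expanded in 20 ng/ml IL-2 over another 5 days. Pdpk1-null CTL came from 3 mice with loxP-flanked alleles of Pdpk1, which encodes the kinase PDK1, and a Cre recombinase fused to the estrogen receptor in the ROSA26 locus (PDK1fl/fl TamoxCre). Cre control CTL came from 3 mice with the same Cre and wild-type Pdpk1. Both received 0.6 μM 4OHT, the tamoxifen metabolite that switches the Cre on, for the last 72 hr, so effects of Cre and 4OHT are shared by the groups. In a separate experiment, part of the CTL of each of 3 wild-type mice received 1 μM AktI-1/2 (AktI), an inhibitor of Akt, for the last 48 hr, and the rest stayed in IL-2 alone. The study's text states IL-2 during activation for these wild-type cultures. The replicates are thus cultures of separate mice, and in the AktI comparison each mouse gave both cultures. Ages are not given in the sources used here.

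Fatty acids are built in the cytosol from acetyl-CoA. Citrate leaves the mitochondrion through the carrier Slc25a1 and is split by ATP citrate lyase (Acly) into acetyl-CoA and oxaloacetate, and Acss2 makes acetyl-CoA from acetate. Acetyl-CoA carboxylase (Acaca) turns acetyl-CoA into malonyl-CoA, fatty acid synthase (Fasn) joins these units into palmitate, and malic enzyme (Me1) yields some of the NADPH that the synthase uses. The acyl-CoA synthetases Acsl3, Acsl4 and Acsl5 couple fatty acids to coenzyme A so that they can enter lipids or be broken down. Activated T cells are known to make fatty acids as they grow and divide, and transcription factors of the SREBP family are known to drive most of these genes.

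Upstream sequences of 4 of the genes are given because these 4, with Acaca, are the members whose Pdpk1-null and Cre control signals did not overlap. Each run is the 250 bases before the gene's start, 5′ to 3′ on the gene's strand, from RefSeq on GRCm38.p6, and capitals mark every match to the motifs searched. Acly lies at chr11:100528001-100528250 on the minus strand, Fasn at chr11:120824548-120824797 on the minus strand, Slc25a1 at chr16:17928220-17928469 on the minus strand and Me1 at chr9:86695915-86696164 on the minus strand.
Acly: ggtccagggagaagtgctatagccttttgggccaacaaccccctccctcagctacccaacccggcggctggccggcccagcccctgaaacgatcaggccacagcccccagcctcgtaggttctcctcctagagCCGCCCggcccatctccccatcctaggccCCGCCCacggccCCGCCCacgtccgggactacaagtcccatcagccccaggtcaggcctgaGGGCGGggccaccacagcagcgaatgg
Fasn: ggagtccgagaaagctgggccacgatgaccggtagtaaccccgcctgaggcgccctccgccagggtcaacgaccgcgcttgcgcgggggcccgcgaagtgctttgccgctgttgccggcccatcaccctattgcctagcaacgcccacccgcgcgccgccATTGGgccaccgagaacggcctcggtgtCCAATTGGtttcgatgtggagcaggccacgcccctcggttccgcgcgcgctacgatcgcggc
Slc25a1: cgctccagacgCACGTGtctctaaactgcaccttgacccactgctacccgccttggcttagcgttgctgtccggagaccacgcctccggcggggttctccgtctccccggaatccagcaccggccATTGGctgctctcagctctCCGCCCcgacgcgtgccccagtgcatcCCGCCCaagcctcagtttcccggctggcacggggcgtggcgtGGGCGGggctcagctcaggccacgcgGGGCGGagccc
Me1: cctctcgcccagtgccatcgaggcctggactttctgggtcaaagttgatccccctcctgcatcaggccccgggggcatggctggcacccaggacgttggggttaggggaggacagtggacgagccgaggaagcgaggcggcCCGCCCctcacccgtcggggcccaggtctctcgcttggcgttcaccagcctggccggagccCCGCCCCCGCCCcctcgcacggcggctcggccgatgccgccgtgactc

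The motifs were searched on both strands of windows that run from 250 bases before to 50 after the start, for each of the 9 genes and for all 32851 windows of the table. The NF-Y box CCAAT was found in 6 of the 9 windows (Acly, Fasn, Acss2, Slc25a1, Acsl3 and Acsl5) and in 37.4% of all windows. The Fasn sequence holds 3 of these boxes, a pair of which overlap as CCAATTGG. The GC box GGGCGG was found in 6 of the 9 windows (Acly, Acss2, Me1, Slc25a1, Acsl3 and Acsl4), against 35.7% of all windows, and 4 matches lie in each of the Acly and Slc25a1 sequences. The E box CACGTG was found in Slc25a1 alone, at position -239 from its start, against 7.15% of all windows. The letters TCACNCCAC of a sterol response element, found in 1.24% of all windows, and GTAAACA of a FOXO site, found in 3.65%, were in none of the 9. The table's window for Acaca begins at a start inside the gene and is not shown. It is counted among the 9 and held no match, so the stretch before the gene itself was not searched for Acaca. Me1 has 2 windows, of which the more upstream was used. A match is a description of these letters only.

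The signals are log2 values of robust multichip averaging, and array medians were 4.606 to 4.628 in the Pdpk1 experiment (6 arrays), while the 6 Akt experiment arrays had 5.102 to 5.141. Effects were therefore compared between the experiments, not levels, and no gene's level was set against another's. Within a group, arrays correlated at r = 0.996 to 0.998. The number of arrays limits the precision. Background was set at the 95th percentile of olfactory and vomeronasal receptor probe sets (80 in all), which gave a log2 signal of 4.45 for the Pdpk1 and 4.99 for the Akt experiment. Pdpk1 mRNA had log2 signals of 9.05, 8.95 and 9.09 in Pdpk1-null CTL, against 8.96, 9.03 and 8.96 in Cre control CTL, and its probe set is not known to lie in the deleted part, so it does not check the labels. The 6 CTL markers (Cd3e, Cd3g, Cd8a, Cd8b1, Gzmb and Prf1) were above background in every group, but not at the same level. Prf1, which encodes perforin, fell with AktI (mean log2 signal 9.95, against 12.15 in IL-2 alone, limma adjusted p = 0.000164) and had 11.33 in Pdpk1-null CTL, against 12.01 in Cre control CTL (limma adjusted p = 0.14). Under 1.5-fold with AktI, Cd8b1 had a log2 fold change of 0.50 (limma adjusted p = 0.0035) and Gzmb of -0.34 (limma adjusted p = 0.0192). Bulk cultures do not tell fewer cells of a type from less RNA per cell.

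Deletion of Pdpk1 moved no member past the test, which was an adjusted p under 0.05 from limma and at least 1.5-fold: 0 of 9 passed, against 1.36% of all genes. Nearly all values lay on the lower side. The log2 fold change was below 0 for 8 of the 9 genes, against 52.9% of all genes, with a median of -0.21 over the members and -0.01 over all genes. All 3 Pdpk1-null arrays lay below all 3 Cre control arrays for 5 genes (Slc25a1, Acly, Acaca, Fasn and Me1), against 13.7% of all genes and 17.8% of those above background. At an unadjusted p under 0.05, 4 members were lower and 0 higher, against 9.04% and 8.22% of all genes, and the methods' SAM (significance analysis of microarrays) passed 0 of 9, against 1.79% of all genes.

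**Figure D1:**
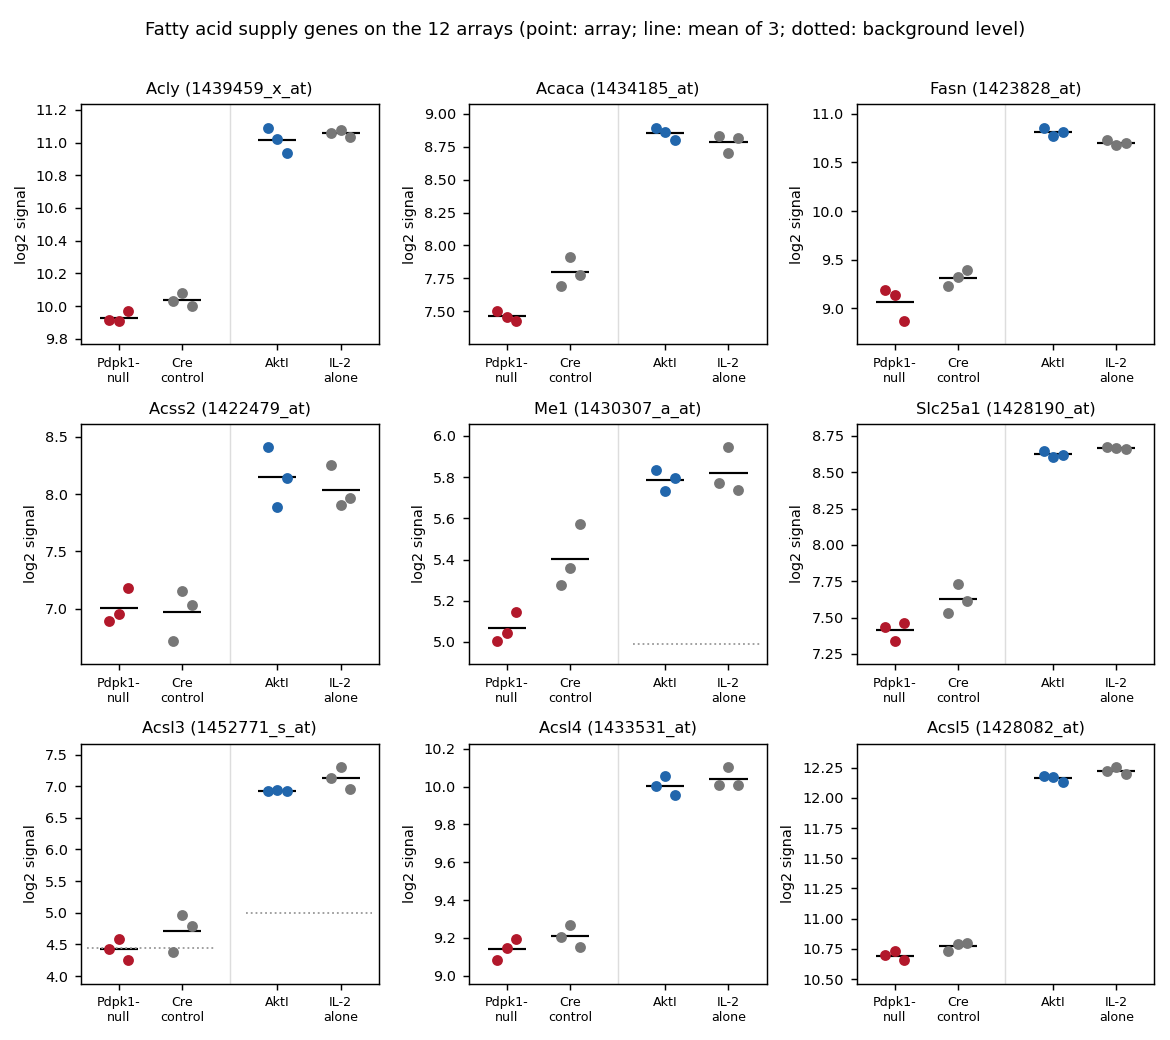
Log2 signal (y axis) of the 9 genes, 1 panel each with its own axis. A point is an array, a line is the mean of 3 arrays and a dotted line is the background level where it falls within the panel. The Pdpk1-null points lie below the Cre control points in 5 panels (Acly, Acaca, Fasn, Me1 and Slc25a1), while AktI and IL-2 alone differ by at most 0.20 in any mean. The experiments in a panel differ in array medians and were taken as normalized separately.

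Citrate supply came first in the pathway. Slc25a1, the citrate carrier, had log2 signals of 7.44, 7.34 and 7.46 in Pdpk1-null CTL, against 7.53, 7.73 and 7.62 in Cre control CTL. The groups did not overlap, although Pdpk1-null replicate 3 and Cre control replicate 1 were close. The log2 fold change was -0.21 (standard error 0.0776, 95% interval -0.39 to -0.04, limma adjusted p = 0.24), which is 86.3% of the Cre control level.

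Acly, which makes cytosolic acetyl-CoA from citrate, had 9.91, 9.91 and 9.97 in Pdpk1-null CTL, against 10.03, 10.08 and 10.00 in Cre control CTL. Its arrays separated by a small margin, and its log2 fold change was -0.11 (standard error 0.0652, 95% interval -0.25 to 0.04, limma adjusted p = 0.51). Acss2, the acetate-using enzyme, had 6.90, 6.95 and 7.18 in Pdpk1-null CTL, against 6.72, 7.16 and 7.03 in Cre control CTL. These overlapped throughout, and Acss2 was the only member with a value above 0 (log2 fold change 0.04, 95% interval -0.24 to 0.32, limma adjusted p = 0.925). Its sign turned when Cre control replicate 1 (-0.09) or Pdpk1-null replicate 3 (-0.05) was left out.

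Acaca, the enzyme that commits acetyl-CoA to fatty acid synthesis, came closest to the threshold. It had 7.50, 7.46 and 7.43 in Pdpk1-null CTL, against 7.70, 7.92 and 7.78 in Cre control CTL, so the Pdpk1-null arrays were tightly grouped and all lower. Its log2 fold change was -0.33 (standard error 0.0775, 95% interval -0.51 to -0.16, limma adjusted p = 0.0787), or 79.3% of the Cre control level with an interval of 70.2% to 89.7%. The adjusted p fell under 0.05 with eBayes in its trend and robust settings (0.0321), with dim probe sets left out (0.042) and with 1 model over all 12 arrays (0.0179), and in none of these did the size reach 1.5-fold.

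Fasn, the synthase itself, had 9.19, 9.13 and 8.87 in Pdpk1-null CTL, against 9.23, 9.32 and 9.39 in Cre control CTL. Pdpk1-null replicate 3 was the lowest of these arrays, and replicate 1 lay just under the nearest Cre control array. The log2 fold change was -0.25 (standard error 0.0971, 95% interval -0.47 to -0.03, limma adjusted p = 0.27). Without Pdpk1-null replicate 3 it was -0.15.

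Me1, the source of NADPH, was measured not far above background, with 5.01, 5.04 and 5.15 in Pdpk1-null CTL, against 5.28, 5.36 and 5.57 in Cre control CTL. Its log2 fold change of -0.34 was the lowest of the 9 (standard error 0.0912, 95% interval -0.55 to -0.13, limma adjusted p = 0.119), which is 79.1% of the Cre control level. With 1 model over all 12 arrays the adjusted p was 0.0413, still under 1.5-fold.

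The acyl-CoA synthetases overlapped between the groups. Acsl5 had 10.70, 10.73 and 10.65 in Pdpk1-null CTL, against 10.73, 10.79 and 10.80 in Cre control CTL (log2 fold change -0.08, limma adjusted p = 0.641), and Acsl4 had 9.08, 9.14 and 9.20, against 9.21, 9.27 and 9.15 (-0.07, limma adjusted p = 0.728). Acsl3 was at the edge of detection, with 4.43, 4.58 and 4.25 in Pdpk1-null CTL, against 4.39, 4.97 and 4.80 in Cre control CTL. The Pdpk1-null mean of 4.42 was below background and the Cre control mean of 4.72 above it, so the size of its log2 fold change (-0.30, 95% interval -0.64 to 0.05, limma adjusted p = 0.406) is not exact. For the other 8 members the 95% interval lay within 1.5-fold in either direction.

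Array by array, Cre control replicate 1 stood nearest to the Pdpk1-null arrays. All 9 members were below their Cre control mean in Pdpk1-null replicates 1 and 2 and 8 in replicate 3, and so were all 9 in Cre control replicate 1, against 1 in replicate 2 and 4 in replicate 3. The median over the members was -0.26 without Cre control replicate 1, and it ran from -0.26 to -0.15 over the 6 fits that leave out 1 array.

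AktI also moved no member past the test (0 of 9, against 2.53% of all genes), and the values stayed close to 0. The log2 fold changes ran from -0.20 to 0.11 with a median of -0.04, against -0.02 over all genes. Values were below 0 for 6 members, against 55% of all genes. At an unadjusted p under 0.05 there were 0 members, against 20.3% of all genes, all 9 intervals lay within 1.5-fold in either direction, and SAM passed 0, against 2.76%. These tests did not pair the cultures by mouse. With the mouse as a block, Acsl3 had an unadjusted limma p of 0.0499. The AktI arrays were all below those in IL-2 alone for 3 members (Slc25a1, Acsl3 and Acsl5), against 14.8% of all genes, and all above for 1 (Fasn), against 12.7%.

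Fasn had 10.86, 10.77 and 10.81 with AktI, against 10.73, 10.68 and 10.70 in IL-2 alone. Each of the 3 mice had the higher signal with AktI, by 0.13, 0.09 and 0.12, and the log2 fold change was 0.11 (standard error 0.0626, 95% interval -0.03 to 0.26, limma adjusted p = 0.414). Acaca had 8.89, 8.86 and 8.80 with AktI, against 8.83, 8.70 and 8.82 in IL-2 alone, and the groups overlapped (log2 fold change 0.07, 95% interval -0.09 to 0.23, limma adjusted p = 0.685). Slc25a1 varied little between arrays, with 8.65, 8.61 and 8.62 with AktI, against 8.67, 8.67 and 8.66 in IL-2 alone. Its groups did not overlap, yet the log2 fold change was only -0.04 (95% interval -0.18 to 0.09, limma adjusted p = 0.789).

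Acsl3 was well above background in this experiment, with 6.92, 6.94 and 6.92 with AktI, against 7.13, 7.30 and 6.95 in IL-2 alone. The AktI arrays were nearly equal, and the gap to IL-2 alone was 0.21, 0.36 and 0.03 in mice 1 to 3 (log2 fold change -0.20, standard error 0.0905, 95% interval -0.41 to 0.00, limma adjusted p = 0.291). Acsl5 had 12.19, 12.18 and 12.13 with AktI, against 12.22, 12.25 and 12.20 in IL-2 alone (-0.06, limma adjusted p = 0.703). Its arrays separated in every mouse, by under 0.1. Acly, Me1 and Acsl4 overlapped, with log2 fold changes of -0.04, -0.03 and -0.04 (limma adjusted p = 0.818, 0.894 and 0.853).

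Acss2 varied most among cultures of the same group, with 8.41, 7.89 and 8.14 with AktI, against 8.25, 7.91 and 7.96 in IL-2 alone. Mouse 1 was high in both cultures. The log2 fold change was 0.11 (standard error 0.139, 95% interval -0.21 to 0.42, limma adjusted p = 0.775), and it turned to -0.03 without AktI replicate 1. With the mouse as a block, the standard error of Acss2 was 0.0729 (limma adjusted p = 0.527), and the lowest adjusted p among the 9 members was 0.277.

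**Figure D2:**
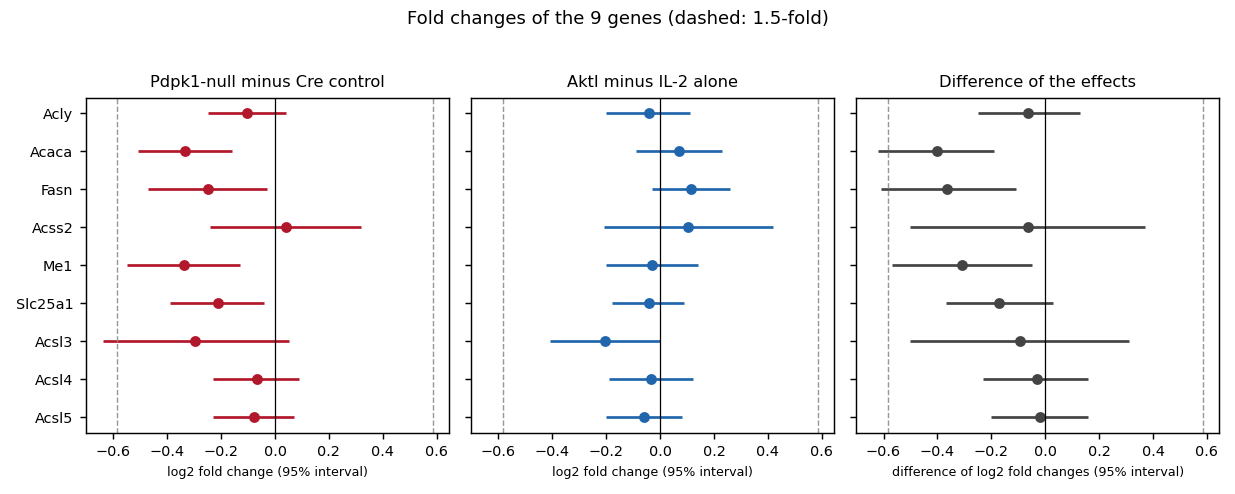
Log2 fold changes of the 9 genes (points) with 95% intervals (bars) for Pdpk1-null minus Cre control, AktI minus IL-2 alone, and the difference of these effects. Dashed lines mark 1.5-fold. Values in the Pdpk1 panel lie below 0 for all but Acss2, those in the AktI panel lie around 0, and no member passed in any panel.

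The difference of the effects, Pdpk1-null minus Cre control less AktI minus IL-2 alone, was tested in a limma model of all 12 arrays, and 0 of 9 members passed, against 0.522% of all genes. The value was below 0 for all 9 members, against 49.2% of all genes, and 3 were lower at an unadjusted p under 0.05, against 5.42% of all genes. These were Acaca (-0.40, standard error 0.101, adjusted p = 0.132), Fasn (-0.36, standard error 0.116, adjusted p = 0.258) and Me1 (-0.31, standard error 0.121, adjusted p = 0.386). For Acaca the adjusted p was 0.0471 with trend and robust settings, under 1.5-fold. The Pdpk1 and AktI effects on these genes were therefore not shown to differ at the thresholds used. For the others, Slc25a1 had -0.17 and the remaining 5 had -0.10 to -0.02, and 4 of these 5 turned in sign under at least 1 alternative.

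Further probe sets of the same genes were read as repeats of the measurement on the same RNA. Acly, with 6 probe sets, had 3 above background, and for all 3 the Pdpk1-null arrays were below the Cre control arrays. Beside the -0.11 of the brightest, these gave -0.18 (limma adjusted p = 0.27) and -0.22 (limma adjusted p = 0.167), and with AktI -0.04 and -0.09. The second Acaca probe set, close to background, gave a log2 fold change of -0.15 in Pdpk1-null CTL (limma adjusted p = 0.407) with overlapping groups, and that of Me1 gave -0.16 (limma adjusted p = 0.676), a size that is not exact because its Pdpk1-null mean of 4.41 was below background. Fasn, Slc25a1 and Acsl5 have 1 probe set each.

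The probe sets of Acsl4 differed in their values with AktI. The second brightest had 8.85, 8.91 and 8.90 with AktI, against 9.12, 9.19 and 9.09 in IL-2 alone, and was lower in each mouse by 0.26, 0.28 and 0.19. Its log2 fold change was -0.24 (standard error 0.0636, 95% interval -0.39 to -0.10, limma adjusted p = 0.0705, or 0.112 with the mouse as a block). The brightest had -0.04 and the dimmest -0.05. In Pdpk1-null CTL the brightest, second and dimmest gave -0.07, -0.08 and -0.04. The second brightest Acss2 probe set gave 0.26 with AktI (log2 fold change, limma adjusted p = 0.305), of which mouse 1 had 0.53 and mice 2 and 3 had 0.14 and 0.11. The other 2 Acsl3 probe sets were below background in the Pdpk1 experiment. The probe set that names Acss2 together with a second gene was below background in all groups and was not used.

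**Figure D3:**
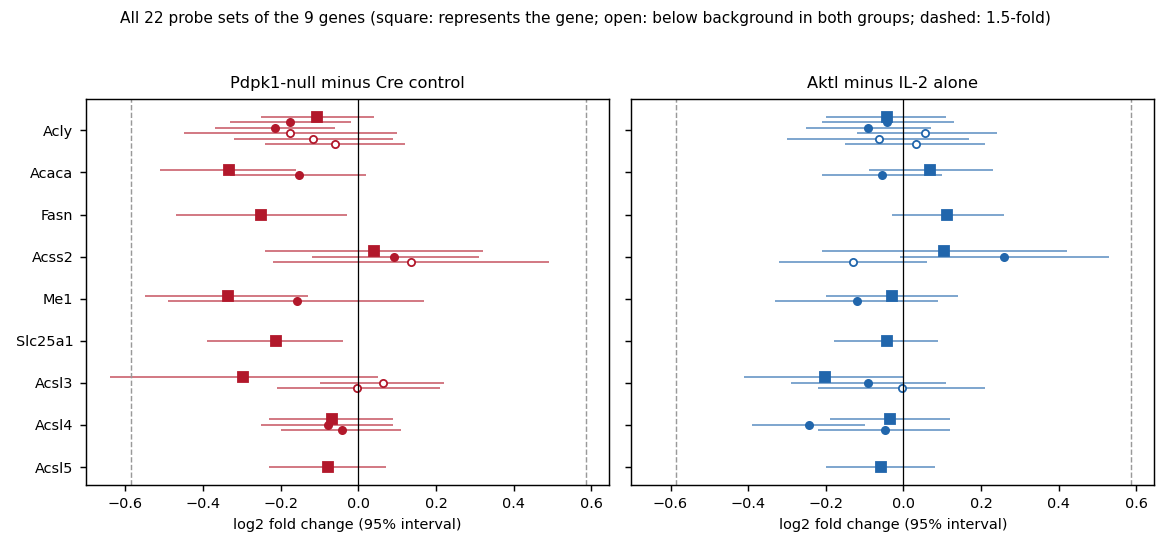
Log2 fold changes with 95% intervals for the 22 probe sets that name 1 of the genes alone, grouped by gene. Squares represent the gene, open points were below background in both groups of the comparison, and dashed lines mark 1.5-fold. No probe set reaches 1.5-fold in either panel, and 1 of the 3 Acsl4 probe sets lies apart from the rest with AktI at -0.24.

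The steps on either side of the supply genes were counted in 9 lists, of whose 135 genes 123 were measured. The lists were written with earlier results of these data known, so their counts beside the shares of all genes are a description only. After Pdpk1 deletion 1 of the 123 passed higher and 7 lower, against 1.01% and 0.357% of all genes, and with AktI 2 passed higher and 1 lower, against 1.51% and 1.03%. With the mouse as a block, 3 passed higher and 1 lower with AktI. The difference of the effects passed lower for 3 (Pparg, Hmgcs1 and Dhcr7), against 0.203% of all genes, and higher for 0.

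In 4 of the lists no gene passed in either comparison. Of 14 genes of mitochondrial citrate and pyruvate supply, 0 passed in either comparison, and the largest values were those of Dlat, a subunit of the pyruvate dehydrogenase complex (log2 fold change -0.36 in Pdpk1-null CTL, limma adjusted p = 0.066), and Pdk1, a kinase that inhibits this complex and is not the PDK1 encoded by Pdpk1 (0.33, limma adjusted p = 0.0877). Of 14 genes of malate and NADPH supply, 0 passed, with Mthfd2, a mitochondrial folate enzyme, at -0.28 (limma adjusted p = 0.221) and Pgd, of the pentose phosphate pathway, at -0.24 (limma adjusted p = 0.125) in Pdpk1-null CTL. None of the 10 genes of mitochondrial fatty acid synthesis passed, where the values furthest from 0 were 0.15 with AktI for Lipt1, a lipoyl transferase, and 0.14 in Pdpk1-null CTL for Acacb, the carboxylase at the mitochondrial surface. Of 10 genes of fatty acid uptake and acyl-CoA binding, 0 passed, with Fabp5, a fatty acid binding protein, at 0.34 with AktI (limma adjusted p = 0.0757), while Cd36, a fatty acid transporter, was below background in all groups.

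Acss1, the mitochondrial relative of Acss2, rose in both comparisons, in which no supply gene passed. It had 5.76, 5.20 and 5.63 in Pdpk1-null CTL, against 4.61, 4.39 and 4.59 in Cre control CTL (log2 fold change 1.00, standard error 0.141, limma adjusted p = 0.0154). With AktI it had 6.77, 6.93 and 6.81, against 5.98, 5.97 and 5.66 in IL-2 alone (0.97, standard error 0.098, limma adjusted p = 0.00112). The groups were well apart in each case, with the Cre control mean of 4.53 close to background, and the effects differed by 0.04 with a 95% interval of -0.36 to 0.43 (adjusted p = 0.974). It was the only one of 9 other acyl-CoA and acetyl-CoA synthetases to pass. The call after deletion was lost on leaving out any 1 Cre control culture or Pdpk1-null replicate 3 (adjusted p from 0.0516 to 0.0699), and as the mean of all its probe sets Acss1 had 0.45 and 0.47, under 1.5-fold.

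Of 18 regulators of lipogenic transcription, only Pparg, a nuclear receptor that controls fat storage, passed. It fell in Pdpk1-null CTL (log2 fold change -1.02, limma adjusted p = 0.0208), a call lost without any 1 Cre control replicate (0.058 to 0.0943), and was below background in the Akt experiment. The difference of its effects was -1.05 (adjusted p = 0.0329), a call lost without either of Cre control replicates 1 and 3, without Pdpk1-null replicate 2 and without any 1 of AktI replicates 1 to 3 or IL-2 alone replicates 1 and 3 (0.0552 to 0.1). Srebf1 and Srebf2, which encode the SREBP factors, had log2 fold changes of 0.00 and 0.01 in Pdpk1-null CTL (95% intervals -0.19 to 0.18 and -0.16 to 0.19) and of -0.04 and -0.15 with AktI (limma adjusted p = 0.851 and 0.396). These mRNA values do not measure the processed proteins.

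Genes that desaturate or lengthen fatty acids were counted next. Of 18 genes of desaturation and elongation, 3 fell in Pdpk1-null CTL. Scd1, which makes oleate, had 7.45, 7.28 and 7.63, against 8.22, 8.46 and 7.99 in Cre control CTL (log2 fold change -0.77, limma adjusted p = 0.03), and Fads2 and Fads3, desaturases of longer chains, had -0.61 (0.0111) and -0.85 (0.0228). The list's median was -0.14, against -0.01 over all genes. Each of the 3 calls was lost in several fits without 1 array: for Scd1 without 5 of the 6 arrays (adjusted p from 0.0529 to 0.0961), for Fads2 without Cre control replicate 2 (0.0578) and, under 1.5-fold, Pdpk1-null replicate 3 (-0.55), and for Fads3 without 4 of the arrays (0.0705 to 0.0904). With AktI, 1 gene of the list rose without the block and 2 with the mouse as a block. Elovl6, which lengthens the palmitate that Fasn makes, had 9.57, 9.63 and 9.64 with AktI, against 8.60, 8.65 and 8.46 in IL-2 alone (log2 fold change 1.05, standard error 0.0721, limma adjusted p = 0.000167). In Pdpk1-null CTL its 8.62, 7.75 and 7.91, against 7.63, 7.67 and 7.82 in Cre control CTL, overlapped, and replicate 1 stood apart (0.39, limma adjusted p = 0.417). Elovl7, an elongase of the same family, had 6.65, 6.33 and 5.90 with AktI, against 5.68, 5.83 and 5.26 in IL-2 alone. It was higher with AktI in each mouse, by 0.97, 0.51 and 0.64 (log2 fold change 0.71, standard error 0.197), and its limma adjusted p was 0.0892 without the block and 0.0156 with it.

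Glycerolipid synthesis, which uses the acyl-CoA that the Acsl enzymes form, had 1 of 16 genes past the test. Agpat3, an acyltransferase, fell with AktI (log2 fold change -0.63, limma adjusted p = 0.00288), with -0.38 in Pdpk1-null CTL, under 1.5-fold (limma adjusted p = 0.0263). The AktI call was lost without IL-2 alone replicate 1 (-0.58, under 1.5-fold) and as the mean of all its probe sets (-0.15, adjusted p = 0.24).

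Sterol synthesis, the other pathway that starts from cytosolic acetyl-CoA, had the lowest median of the lists in Pdpk1-null CTL. Of its 14 measured genes all 14 were below 0 in Pdpk1-null CTL, against 52.9% of all genes. For 13 the groups did not overlap, against 13.7% of all genes that were lower without overlap and 17.8% of those above background. The median was -0.41, against -0.21 over the 9 supply genes and -0.01 over all genes. Hmgcs1, which makes HMG-CoA, fell to 10.92, 10.95 and 11.00, against 11.79, 11.95 and 11.78 in Cre control CTL (log2 fold change -0.89, limma adjusted p = 0.00152), and Fdps (-0.61, 0.0146) and Hsd17b7 (-0.65, 0.0343) fell too. With AktI 0 of the 14 passed and the median was -0.05. The difference of the effects passed for 2 of the 14, Hmgcs1 (-0.77, standard error 0.107, adjusted p = 0.00489) and Dhcr7, a late enzyme of the pathway (-0.68, standard error 0.118, adjusted p = 0.0241). Dhcr7 had -0.48 in Pdpk1-null CTL, under 1.5-fold (limma adjusted p = 0.0343), and 0.20 with AktI (limma adjusted p = 0.224), and its difference no longer passed without any 1 of 6 arrays, which are Cre control replicates 2 and 3, Pdpk1-null replicates 2 and 3 and AktI replicates 1 and 2 (0.0503 to 0.0749). The Hmgcs1 calls were kept in every fit without 1 array, while Fdps lost its call with Cre control replicate 2 or 3 or Pdpk1-null replicate 3 left out (adjusted p from 0.0577 to 0.068) and Hsd17b7 without 5 of the arrays (0.0871 to 0.118). The difference of the lists' medians was not tested.

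**Figure D4:**
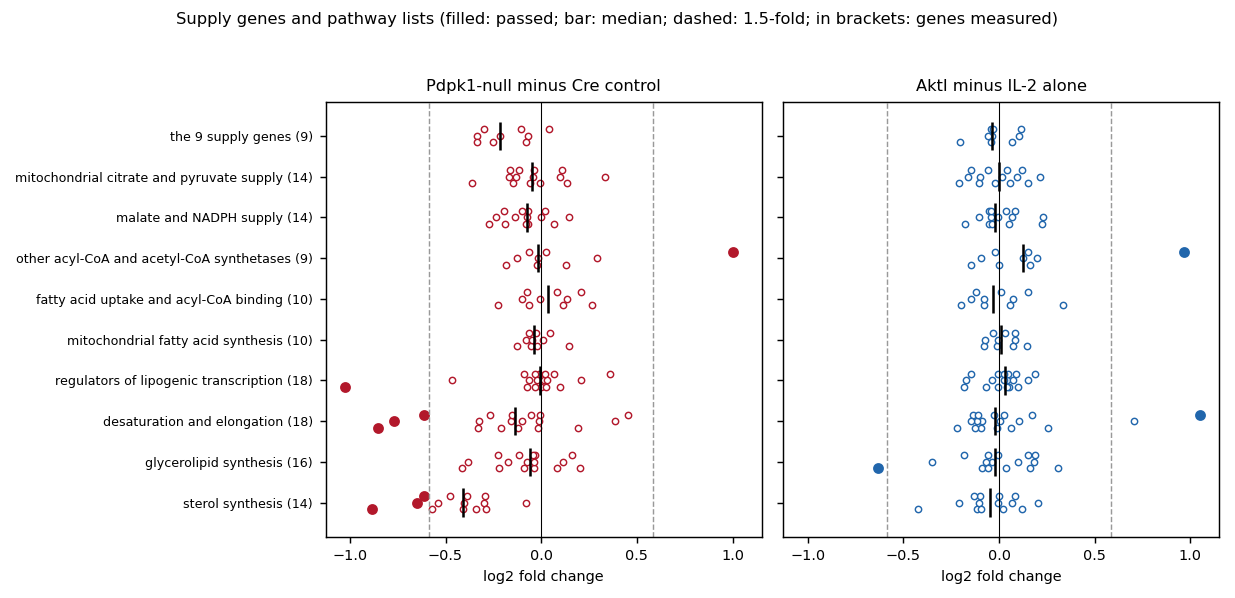
Log2 fold changes of the 9 supply genes and of the measured genes of 9 lists (number in brackets) for Pdpk1-null minus Cre control and AktI minus IL-2 alone. Filled points passed, bars are medians and dashed lines mark 1.5-fold. In the Pdpk1 panel the sterol genes lie furthest below 0 with a median of -0.41, the supply genes have -0.21, and in the AktI panel the medians run from -0.05 to 0.12.

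Genes whose signals ran most like the supply core were ranked by Pearson's r with the mean of Acly, Acaca and Fasn over the 12 arrays, each gene centred on the mean of its experiment. The arrays share groups and normalization, so r is a description. Of 11446 genes compared, Slc10a7 (r = 0.939), Tnfrsf21 (0.929), Prkar2b (0.927), Nsdhl (0.927) and Nudt4 (0.916) came first. Nsdhl is an enzyme of sterol synthesis and Tnfrsf21 a death receptor, which fell in Pdpk1-null CTL (log2 fold change -1.40, limma adjusted p = 0.00692). Of the other members, Slc25a1 had r = 0.796 (rank 135), Me1 0.673 (581), Acsl5 0.638 (767), Acsl3 0.591 (1020), Acsl4 0.278 (3494) and Acss2 0.151 (4682). Many genes outside the members thus ran more like the core.

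Markers of other cells that splenic cultures can hold were read beside these values. Of 4 B cell markers 2 were above background in Pdpk1-null CTL, 2 in Cre control CTL, 3 with AktI and 3 in IL-2 alone. Their signals were summed on the linear scale, where the brightest marker weighs most, and the log2 of the sum is given. It was 6.81 to 6.86 in Pdpk1-null CTL, against 6.75 to 6.89 in Cre control CTL, and 7.42 to 7.52 with AktI, against 7.19 to 7.41 in IL-2 alone. Summed signals of the other cell types are given in the same way. Of 5 myeloid markers 3 were above background in Pdpk1-null CTL, 2 in Cre control CTL, 1 with AktI and 1 in IL-2 alone, with a summed signal of 7.36 to 7.51 in Pdpk1-null CTL, against 7.34 to 7.39 in Cre control CTL, and 7.40 to 7.53 with AktI, against 7.53 to 7.62 in IL-2 alone. Of 4 mast cell and basophil markers 2 were above background in Pdpk1-null CTL, 2 in Cre control CTL, 0 with AktI and 1 in IL-2 alone. Their summed signal was 7.17 to 8.06 in Pdpk1-null CTL, against 7.39 to 8.10 in Cre control CTL, and 6.06 to 6.37 with AktI, against 6.49 to 7.09 in IL-2 alone. Of these markers only Mcpt8 fell with AktI (4.87, against 5.96 in IL-2 alone, limma adjusted p = 0.0465). The others were below background in the Akt experiment, with log2 fold changes of -0.11 (Cpa3), 0.02 (Fcer1a) and 0.12 (Ms4a2). All 3 dendritic cell markers were above background in every group, with a summed signal of 6.82 to 6.92 in Pdpk1-null CTL, against 6.74 to 6.82 in Cre control CTL, and 7.07 to 7.13 with AktI, against 7.16 to 7.23 in IL-2 alone. The helper T cell marker Cd4 was above background in every group, with means of 6.52 in Pdpk1-null CTL, against 6.65 in Cre control CTL, and 6.87 with AktI, against 6.92 in IL-2 alone, while Cd40lg was above background in Pdpk1-null CTL alone (4.54, against 4.42 in Cre control CTL). Both erythroid markers measured were below background in all groups. The fat cell markers Adipoq and Lep, of cells rich in the supply genes, were below background in all groups. The part of B, helper T, dendritic, myeloid and basophil cells in the values of the supply genes was not tested.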

How the data were processed

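RNA of 12 cultures, 3 per group, was hybridized to Affymetrix mouse arrays. The deposited log2 signals were made by the authors in Affymetrix Expression Console 1.1 by robust multichip averaging, and these were used as deposited. A robust average compresses small changes and weak signals. The array medians differ between the experiments, which were therefore taken as normalized separately, although the study's text does not state this. The fits held 45037 of 45101 probe sets, without 64 controls. Of these 34945 name 1 gene, 932 several and 9160 none. A gene took its brightest probe set over the 12 arrays.

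Each comparison was fitted on its own 6 arrays with lmFit and eBayes of limma 3.58.1 in R 4.3.3, without covariates. P-values are two-sided and adjusted by Benjamini-Hochberg over all tested probe sets, and intervals are 95% intervals of that fit. To pass, a gene needed an adjusted p below 0.05 and a change of 1.5-fold or more. An exact permutation of 3 against 3 arrays cannot go below p = 0.1, so none was run for single genes. SAM set its cutoff from the 20 relabellings of the 6 arrays of a comparison. The fits were tested on simulated data, where the added changes were all over 1.5-fold. Smaller changes, such as those of the members, were not simulated.

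The members, the gene lists and the tests were chosen with earlier results of these data known. The text names all 9 members, from each list the genes that passed in either comparison (at most 4) or, with none, the 2 furthest from 0, and the 5 genes most like the core. Srebf1, Srebf2, Elovl7, Dhcr7 and the difference for single list genes were added with their values seen. AktI replicates were paired by their number, as the titles name no mouse and the study's text states that each mouse's culture was split. Deviations of same-number AktI pairs had r of 0.0343 to 0.17, against -0.102 to 0.0383 for other pairs, so the ranges overlapped. Pdpk1 replicates share only a number, and their same-number pairs had r of -0.011 to 0.0496. Alternatives were trend and robust settings, quantile and median normalization, a filter on dim probe sets, other fold minimums, other gene summaries, 1 model over all arrays, the methods' SAM, and a replicate block. Each array was also left out in turn. Protein sequences were not analysed here.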

Additional observations from a re-analysis of the deposited data

How the results depend on the processing

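In both comparisons and in the difference of the effects, 0 of the 9 supply genes passed under every alternative run. SAM and the model over all arrays were run for the comparisons only. Of 495 values of single members, 480 kept their direction and 15 reversed, 8 of these without 1 array. Many of the 480 could not reverse, because alternatives that change only the test or its filter leave the fold change as it is. These are the trend and robust settings, the dim filter, the fold minimums, the block, the model over all arrays and SAM. The count therefore does not measure how stable the directions are. With each gene as the mean over its probe sets, the median over the members after Pdpk1 deletion was -0.14, against -0.21. Without 1 array, this median ran from -0.26 to -0.15 after deletion, from -0.053 to -0.004 with AktI and from -0.22 to -0.04 for the difference, where Cre control replicates 1 and 2 gave the ends. Leaving out 1 array also reversed Acss2 after deletion (-0.085 to 0.134), Acss2 with AktI (-0.025 to 0.234) and Me1 with AktI (-0.070 to 0.033, positive without IL-2 alone replicate 2). For the difference it reversed Acss2 (-0.194 to 0.065) and Acsl3 (-0.262 to 0.032). The difference also reversed for Acsl5 with quantile normalization (0.002), for Acss2, Acsl3 and Acsl4 as the mean over probe sets (0.011, 0.021 and 0.046), and for the same genes by any probe set (0.263, 0.155 and 0.165). The cause was not tested.

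With the replicate block the lowest adjusted p among the members was 0.102 after deletion, 0.277 with AktI and 0.2 for the difference, and no call of a member changed. Over all genes 257 passed after deletion with the block, against 248, and 487 with AktI, against 461. Among list genes after deletion, Scd1 lost its call with the block (adjusted p = 0.078) and with 1 model over all arrays (0.112), and as the mean over probe sets Fads2 (-0.54), Fads3 (-0.30), Fdps (-0.25) and Hsd17b7 (-0.40) no longer passed. For the difference, Pparg lost its call with the block (0.0659) and Fads3 gained one (0.0493, against 0.098). Weak signals limit Acsl3 and Me1, which lie near background in the Pdpk1 experiment.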
